A study of Mus musculus with 6 samples.

Results

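The 9 genes described here are the T cell coreceptors Cd4, Cd8a and Cd8b1, the T cell surface proteins Cd5 and Thy1, and the lineage transcription factors Foxp3, Tbx21, Runx3 and Gata3. They were chosen by name, out of 46078 gene rows in the count table, to ask which T cell subsets the lower lymphocyte signal of Lingo2 mutant colon covers. All 9 had reads and all 9 passed the filter on low counts, among 16757 genes tested. RNA came from the cells that a wash with EDTA and DTT released from mouse colon, in 3 wild type and 3 Lingo2-/- libraries. All mice were 2 months old and naive. The labels give no strain, no description of the mutant allele and no statement that libraries came from separate animals, so p-values here measure spread among libraries alone, and that spread may be technical.

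A T cell reads antigen with its receptor and the CD3 chains, and a coreceptor holds the receptor to the presenting molecule. CD4 binds MHC class II on helper and regulatory T cells. CD8 binds MHC class I, either as a pair of an alpha and a beta chain on conventional cytotoxic T cells, or as an alpha-alpha pair, which is common on the lymphocytes that live within the gut epithelium. Runx3 and Tbx21 take part in the CD8 and cytotoxic programme, Gata3 in the helper programme of type 2 responses, and Foxp3 defines regulatory T cells.

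The libraries differed in more than genotype. Gene reads per library ran from 25010618 to 28029583 for wild type but only from 7060769 to 13047682 for the mutant, and a low gene therefore has a larger counting error there. Alignments assigned to no annotated feature were 18.5% to 22.1% for wild type against 23.6% to 27.6% for the mutant. These are shares of all entries in the count table, its summary lines included. Mitochondrial genes took 45.3% to 48.4% of gene reads against 35.7% to 39.8%. The targeted gene Lingo2 was counted 0, 7 and 0 times in the wild type libraries and 1, 1 and 0 times in the mutant libraries, which does not check the genotype labels at this depth. The labelled epithelium was present. Its 12 listed identity genes summed to 14174 to 15265 CPM in wild type against 13680 to 15554 CPM in the mutant libraries. None of the 12 passed the test (edgeR adjusted p under 0.05). Their median log2 fold change was 0.044, and 5 of the 12 were below 0. The smallest p-values were those of Krt20 (−0.30 ± 0.12, SE), lower in every mutant library, and Cdh1 (−0.29 ± 0.15, SE).

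Windows upstream of the genes' start sites, from RefSeq on GRCm38.p6, were available for 6 of the 9 genes (8 windows, all but Cd4, Cd8b1 and Thy1). They are shown for Cd8a and Cd5, which fell, and for Runx3, which is known to act on Cd8 genes and did not pass the test. Each is the 250 bases before the start, 5′ to 3′ on the gene's strand, at chr6:71373177-71373426 (plus strand) for Cd8a, chr19:10738975-10739224 (minus strand) for Cd5 and chr4:135120395-135120644 (plus strand) for Runx3. Capitals mark matches on either strand to motifs of 3 factor families. The letters TGTGGT stand for the RUNX family. For GATA factors the search used AGATAA as its motif. For ETS factors it used AGGAAG instead. No match overlaps another in these windows.
Cd8a: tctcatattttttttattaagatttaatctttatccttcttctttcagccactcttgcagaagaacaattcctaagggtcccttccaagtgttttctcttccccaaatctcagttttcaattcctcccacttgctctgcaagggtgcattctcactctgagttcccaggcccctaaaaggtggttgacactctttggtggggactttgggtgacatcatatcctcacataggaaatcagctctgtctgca
Cd5: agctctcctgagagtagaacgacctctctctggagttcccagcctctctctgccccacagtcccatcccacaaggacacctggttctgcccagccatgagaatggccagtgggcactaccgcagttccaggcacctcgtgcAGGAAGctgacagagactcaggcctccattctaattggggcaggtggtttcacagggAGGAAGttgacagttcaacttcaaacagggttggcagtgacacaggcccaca
Runx3: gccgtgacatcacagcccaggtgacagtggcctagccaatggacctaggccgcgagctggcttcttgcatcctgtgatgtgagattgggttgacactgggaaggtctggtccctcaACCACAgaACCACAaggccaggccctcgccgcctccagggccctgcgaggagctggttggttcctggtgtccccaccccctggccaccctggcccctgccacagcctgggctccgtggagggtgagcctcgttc
The Cd8a window held none of the 3 motifs, the Cd5 window 2 matches to the ETS motif and the printed Runx3 window 2 matches to the RUNX motif, which read ACCACA on the printed strand. The bases just after the start used for that window were not found as a whole in any GENCODE transcript of the gene. Runx3 has another window, at chr4:135152295-135152544 (plus strand), whose start was found in a transcript, and it held 0 matches to each of the 3 motifs. Over 32851 windows of the same length, 14.0% held the RUNX, 9.99% the GATA and 29.5% the ETS motif at least 1 time. These matches describe letters in a window and are not binding sites measured in this study.

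Transcripts of both CD8 chains, of Thy1 and of Cd5 were lower in the mutant libraries, and none of the 9 genes rose. The 4 called genes fell between 1.88-fold and 3.06-fold (quasi-likelihood test of edgeR, adjusted p under 0.05). Over all genes tested 2.57% were called in either direction and 1.52% were called lower. The other 5 genes, Cd4, Foxp3, Tbx21, Runx3 and Gata3, did not pass. In 7 of the 9 genes every mutant library lay below every wild type library, which was so for 11.8% of all genes tested, and the exceptions were Foxp3 and Runx3. In bulk RNA, fewer cells of a type and less RNA per cell cannot be told apart. The count of 4 was 2 when wild type replicate 1 or 2, or mutant replicate 1 or 3, was left out, and 3 without mutant replicate 2. Cd8a and Thy1 were called in all 15 alternatives.

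**Figure D1:**
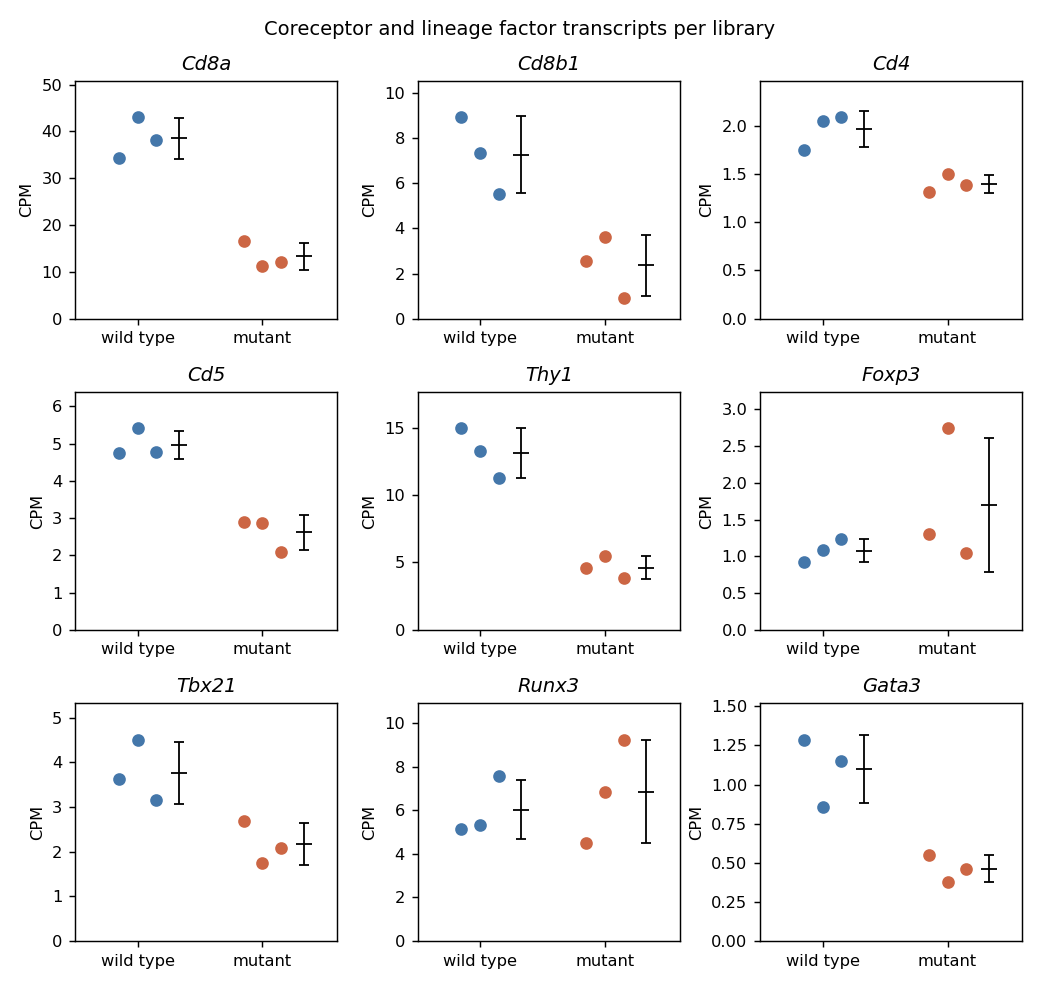
Each panel plots 1 gene's CPM (y axis from 0) in the 3 wild type (blue) and 3 mutant (orange) libraries, with the mean and SD in black. Mutant points lie below all wild type points for 7 genes, while for Foxp3 and Runx3 the groups overlap.

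Cd8a, the alpha chain present in both forms of CD8 (chromosome 6, 71373427 to 71379173, plus strand, GRCm38), stood at 34.4, 43.0 and 38.2 CPM in wild type replicates 1, 2 and 3 and at 16.5, 11.3 and 12.03 CPM in mutant replicates 1, 2 and 3. CPM, the usual unit of read counts relative to library size, here use library sizes scaled by TMM, a method that balances the bulk of genes between libraries. The highest mutant library was below the lowest wild type library. The mean went from 38.5 ± 4.35 (SD, n = 3) to 13.3 ± 2.83 CPM, a log2 fold change of −1.51 ± 0.15 (SE, edgeR adjusted p = 0.000332).

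Cd8b1, the beta chain found only in the alpha-beta form (chromosome 6, 71322788 to 71337494, plus strand), lies on the same strand near Cd8a. It stood at 8.92, 7.35 and 5.54 CPM in wild type against 2.55, 3.61 and 0.926 CPM in mutant replicates 1 to 3. The groups did not overlap, but mutant replicate 3, with 8 reads, was far below the other mutant libraries. Its log2 fold change was −1.61 ± 0.35 (SE, edgeR adjusted p = 0.0472). That call rested on few reads, 74 over the 3 mutant libraries, and ended when mutant replicate 3 was left out (−1.28, edgeR adjusted p = 0.0566), mutant replicate 1 (−1.70, 0.147), wild type replicate 1 (−1.45, 0.103) or wild type replicate 2 (−1.61, 0.111).

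The balance of the CD8 chains was not resolved in these libraries. Per kilobase of annotated exon, Cd8b1 reached 63.7%, 41.9% and 35.5% of the Cd8a level in wild type replicates 1, 2 and 3 and 37.8%, 78.2% and 18.9% in mutant replicates 1, 2 and 3. Cd8a thus exceeded Cd8b1 per length in each of the 6 libraries, and the mutant values lay on both sides of the wild type values. The difference in log2 ratio was −0.22 ± 0.63 (SE of the difference; exact permutation test, two-sided, p = 0.90), and it was above 0 without mutant replicate 3 (0.27) or wild type replicate 1 (0.021). The error was larger than the difference. These values therefore do not settle the direction of any change of the beta chain relative to the alpha chain. With 3 against 3 libraries the smallest p of the exact permutation test is 0.10. A change of any size could thus not pass the threshold used for the gene tests.

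Cd4, the coreceptor of helper and regulatory T cells (chromosome 6, 124864692 to 124888221, minus strand), stood at 1.75, 2.05 and 2.09 CPM in wild type against 1.31, 1.496 and 1.39 CPM in mutant replicates 1 to 3. All mutant libraries were below all wild type libraries, by a smaller step than for Cd8a. The log2 fold change was −0.50 ± 0.26 (SE, edgeR adjusted p = 0.325), with a 95% interval of the fit from −1.06 to 0.06, whereas that of Cd8a ran from −1.83 to −1.19. Reads numbered 142 in wild type against 43 in the mutant libraries, or 1.97 CPM pooled (95% exact Poisson interval 1.66 to 2.32) and 1.38 CPM (0.998 to 1.86). These intervals cover counting error only. Macrophages and dendritic cells can also carry Cd4: of 17 listed markers of these cells 12 were tested and 1 fell, Itgax (log2 fold change −0.99 ± 0.20, SE), a call lost when wild type replicate 2, or mutant replicate 2 or 3, was left out and with the replicate number as a block. Their sum was 88.1 to 109 CPM in wild type against 74.3 to 134 CPM in the mutant libraries, and none was at 0 in all libraries. Their part in the Cd4 value was not tested.

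Relative to Cd8a, Cd4 was higher in every mutant library. Per kilobase it was 4.59%, 4.30% and 4.92% of the Cd8a level in wild type and 7.14%, 11.9% and 10.4% in mutant replicates 1, 2 and 3. The log2 ratio differed by 1.09 ± 0.23 (SE; exact permutation p = 0.10, the smallest possible, adjusted p = 0.15 over 12 ratios). Of all genes tested, 92.5% stood higher relative to Cd8a in every mutant library, so this direction was the usual one, and 0.0716% stood lower.

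**Figure D2:**
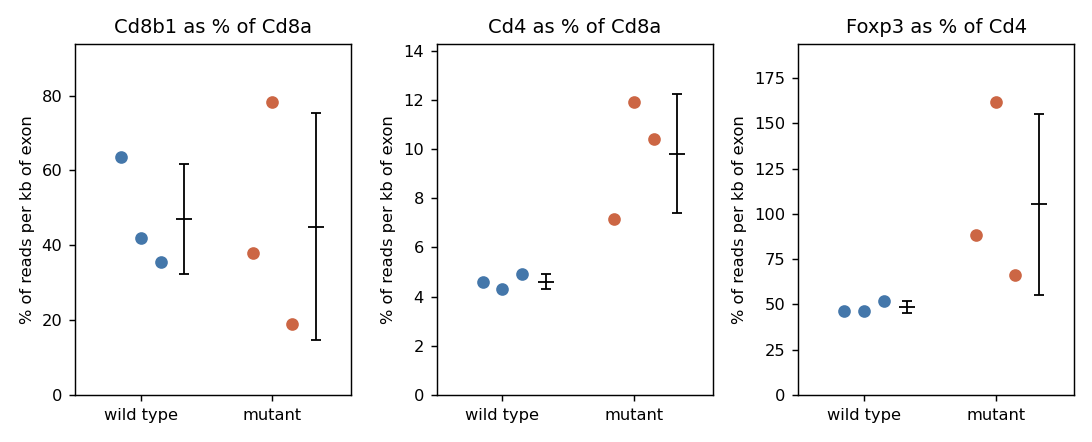
The y axes give one gene's reads per kilobase of exon as a percentage of another's, for Cd8b1 over Cd8a, Cd4 over Cd8a and Foxp3 over Cd4, per library with mean and SD. The mutant libraries scatter widely for Cd8b1 over Cd8a and lie above wild type in the other panels.

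Foxp3, the transcription factor of regulatory T cells (chromosome X, 7573644 to 7595245, plus strand), was the member with the highest fitted change. It stood at 0.920, 1.08 and 1.24 CPM in wild type against 1.31, 2.74 and 1.04 CPM in mutant replicates 1 to 3. The groups overlapped, and mutant replicate 2, with 22 reads, was the highest library. The fitted log2 fold change was 0.60 ± 0.36 (SE, edgeR adjusted p = 0.400; 95% interval −0.19 to 1.39), and 0.14 without mutant replicate 2. A fall of the size seen for Cd8a lay outside this interval. The long noncoding RNA Flicr shares 853 bases of annotated exon with Foxp3 on the same strand (18.6% of the exon length of Foxp3) and had 6, 10 and 9 reads against 6, 4 and 4, and 3 other genes overlap on the opposite strand, so reads there may have been set aside or shared. Per kilobase, Foxp3 was 46.4%, 46.4% and 52.1% of Cd4 in wild type against 88.1%, 162% and 66.1% in mutant replicates 1, 2 and 3. The log2 ratio differed by 1.01 ± 0.37 (SE; exact permutation p = 0.10, adjusted p = 0.15), and 52.2% of all genes tested stood higher relative to Cd4 in every mutant library, and 1.22% lower.

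Thy1, a surface protein of T cells and innate lymphoid cells that fibroblasts and neurons also make (chromosome 9, 44043384 to 44048579, plus strand), stood at 14.9, 13.3 and 11.2 CPM in wild type against 4.55, 5.48 and 3.82 CPM in mutant replicates 1 to 3. The gap between the groups was wider than the spread within either. Its log2 fold change was −1.51 ± 0.17 (SE, edgeR adjusted p = 0.000682). Of 10 listed fibroblast genes 1 fell, Mfap5 (log2 fold change −1.75 ± 0.39, SE), a call lost when wild type replicate 1 or 2, or mutant replicate 2 or 3, was left out, with dispersions that were not robust and with limma voom. In turn 2 genes fell without wild type replicate 3 or with DESeq2, and 3 without the filter on low counts. The median was −1.32, and the list summed to 345 to 997 CPM in wild type against 233 to 508 CPM in the mutant libraries. Of 8 neuron and glia genes 3 were tested, none was called, and the list summed to 3.39 to 3.86 CPM in wild type against 3.49 to 5.31 CPM in the mutant libraries. The part of these cells in the Thy1 value was not tested.

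Cd5, a surface protein that tempers T cell receptor signals and also marks some B cells (chromosome 19, 10717116 to 10739002, minus strand), stood at 4.74, 5.41 and 4.77 CPM in wild type against 2.90, 2.87 and 2.08 CPM in mutant replicates 1 to 3. The groups did not overlap. It fell by 0.91 on the log2 scale (SE 0.20, edgeR adjusted p = 0.0376), and the call ended when any library other than wild type replicate 3 was left out (−1.02 to −0.79, edgeR adjusted p = 0.0659 to 0.130) and with the replicate number as a block (−0.92, edgeR adjusted p = 0.0634). None of 8 B cell genes was called (3 rose without wild type replicate 2), and their median was 0.41, with sums of 21.2 to 60.6 CPM in wild type against 46.6 to 52.8 CPM in the mutant libraries.

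Runx3, the RUNX factor that silences Cd4 and favours the CD8 lineage (chromosome 4, 135120652 to 135177990, plus strand), stood at 5.15, 5.33 and 7.58 CPM in wild type against 4.48, 6.86 and 9.25 CPM in mutant replicates 1 to 3. The groups overlapped over most of their range. The log2 fold change was 0.16 ± 0.26 (SE, edgeR adjusted p = 0.788; 95% interval −0.42 to 0.73), and it was −0.13 without mutant replicate 3. As for Foxp3, the interval did not reach the change of Cd8a. The antisense gene Gm16224 lies within Runx3 without sharing exon bases.

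Tbx21, the T-bet gene of cytotoxic and type 1 programmes (chromosome 11, 97098071 to 97115331, minus strand), stood at 3.63, 4.51 and 3.15 CPM in wild type against 2.69, 1.74 and 2.08 CPM in mutant replicates 1 to 3. Mutant libraries lay below wild type libraries without overlap. The fitted log2 fold change of −0.76 ± 0.24 (SE, edgeR adjusted p = 0.124; unadjusted p = 0.00916) did not pass, and the adjusted p ranged from 0.0504 to 0.305 over 15 alternatives.

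Gata3, a factor of helper T cells and innate lymphoid cells (chromosome 2, 9857078 to 9890034, minus strand), had 28, 23 and 27 reads in wild type against 8, 3 and 4 reads in mutant replicates 1 to 3, or 1.29, 0.858 and 1.15 CPM and 0.552, 0.374 and 0.463 CPM. The groups did not overlap, and mutant replicate 2 sat at the floor that a count of 0 allows, 3 reads or 0.374 CPM in that library. Its log2 fold change was −1.18 ± 0.38 (SE, edgeR adjusted p = 0.126; unadjusted p = 0.00946), with a 95% interval from −2.01 to −0.35. Pooled levels were 1.08 CPM (95% exact Poisson interval 0.856 to 1.35) and 0.481 CPM (0.269 to 0.794). The authors' deposited table, which was matched for the other 8 genes, gave log2 fold changes of −1.51 for Cd8a (adjusted p = 5.52e-15), −1.61 for Cd8b1 (7.31e-05), −0.91 for Cd5 (0.0292), −0.49 for Cd4 (0.607) and 0.63 for Foxp3 (0.556).

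**Figure D3:**
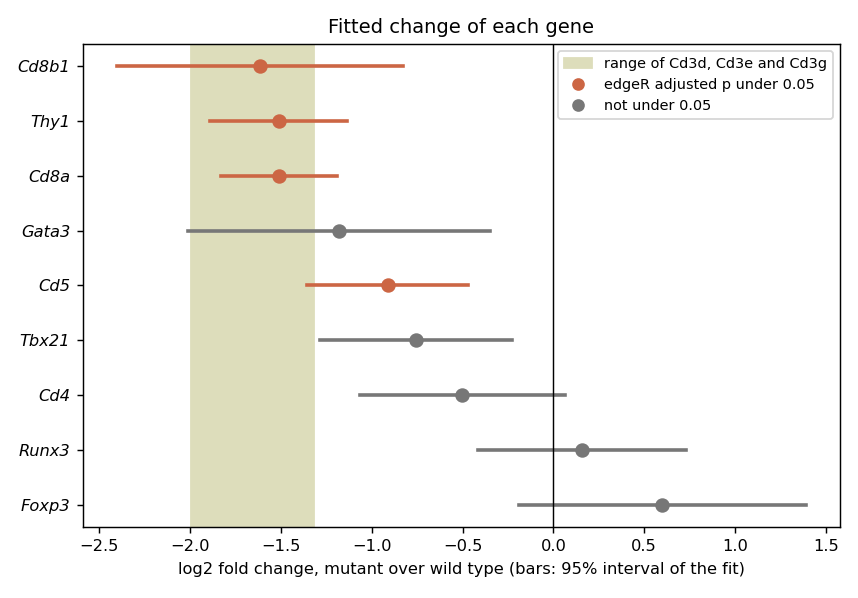
The x axis gives the fitted log2 fold change, mutant over wild type, of each gene with the 95% interval of the fit. Orange marks an edgeR adjusted p under 0.05, and the band spans Cd3g (−1.99) to Cd3e (−1.32). The fitted values of Cd8b1, Thy1 and Cd8a lie in the band, and those of Gata3, Cd5, Tbx21, Cd4, Runx3 and Foxp3 lie to its right.

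Levels can be set in order per kilobase of exon. Cd8a was highest in both genotypes, with means of 10.6 CPM per kilobase in wild type against 3.66 in the mutant libraries. In wild type it was followed by Cd8b1 (4.90) and Thy1 (4.39), which overlapped, then Tbx21 (1.51), Runx3 and Cd5 (1.01), of which each overlapped the next. Cd4 (0.487) lay below these without overlap, and Gata3 (0.276) and Foxp3 (0.236) overlapped at the bottom. In the mutant libraries Cd8b1 (1.59), Thy1 (1.54) and Runx3 (1.37) followed Cd8a, each overlapping the next. There Runx3 stood above Tbx21 (0.873) and Foxp3 (0.371) above Cd4 (0.347), but both of these pairs overlapped, and Gata3 (0.116) was lowest. Reads on 1020 olfactory receptor genes, chosen after the data were seen as genes not expected in gut, came to 0.0031 to 0.0034 CPM per kilobase in wild type and 0.0032 to 0.0039 in the mutant libraries, far below the lowest library of any of the 9 genes (Gata3, 0.0940).

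The CD3 chains, which every T cell makes, allow each gene's reads to be set against T cell transcripts. Such a ratio describes T cells only as far as the gene's reads came from T cells. Which cells made the reads of Runx3, or of any other member, was not tested. Cd3d, Cd3e and Cd3g together had 1151, 1493 and 1348 reads in wild type against 254, 136 and 135 in mutant replicates 1, 2 and 3. Cd8a had 64.9, 77.3 and 66.6 reads per 100 CD3 reads in wild type against 94.5, 66.9 and 77.0 in mutant replicates 1, 2 and 3. The Cd8a ratio overlapped between genotypes (log2 difference 0.18 ± 0.16, SE; exact permutation p = 0.30). The same held for Thy1 (0.22 ± 0.20, exact permutation p = 0.40) and Cd8b1 (−0.04 ± 0.58, exact permutation p = 1.0). The Cd8a and Thy1 differences were below 0 with Cd3e alone as denominator (−0.22 and −0.18), and that of Cd8b1 was above 0 without wild type replicate 1 (0.15) or mutant replicate 3 (0.46).

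On the log2 ratios, which add 0.5 reads to each term, the other 6 genes stood higher relative to CD3 in every mutant library. Without the added reads the groups overlapped for Gata3, which had 3 reads in mutant replicate 2. Gata3 stood at 2.43, 1.54 and 2.00 reads per 100 CD3 reads in wild type against 3.15, 2.21 and 2.96 in the mutant. Cd4 went from 3.30, 3.68 and 3.64 to 7.48, 8.82 and 8.89 reads per 100 CD3 reads, and Foxp3 from 1.74, 1.94 and 2.15 to 7.48, 16.2 and 6.67. Runx3 went from 9.73, 9.58 and 13.2 to 25.6, 40.4 and 59.3. The log2 differences were 1.28 ± 0.10 for Cd4, 2.28 ± 0.40 for Foxp3, 1.88 ± 0.38 for Runx3, 0.95 ± 0.23 for Tbx21, 0.81 ± 0.12 for Cd5 and 0.61 ± 0.23 for Gata3, each with an exact permutation p = 0.10 and an adjusted p = 0.15 over 12 ratios. Since CD3 itself was lower, 95.4% of all genes tested stood higher relative to CD3 in every mutant library, and 0.0418% lower. A higher ratio was thus the usual case, and Cd8a, Cd8b1 and Thy1 were outside it.

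**Figure D4:**
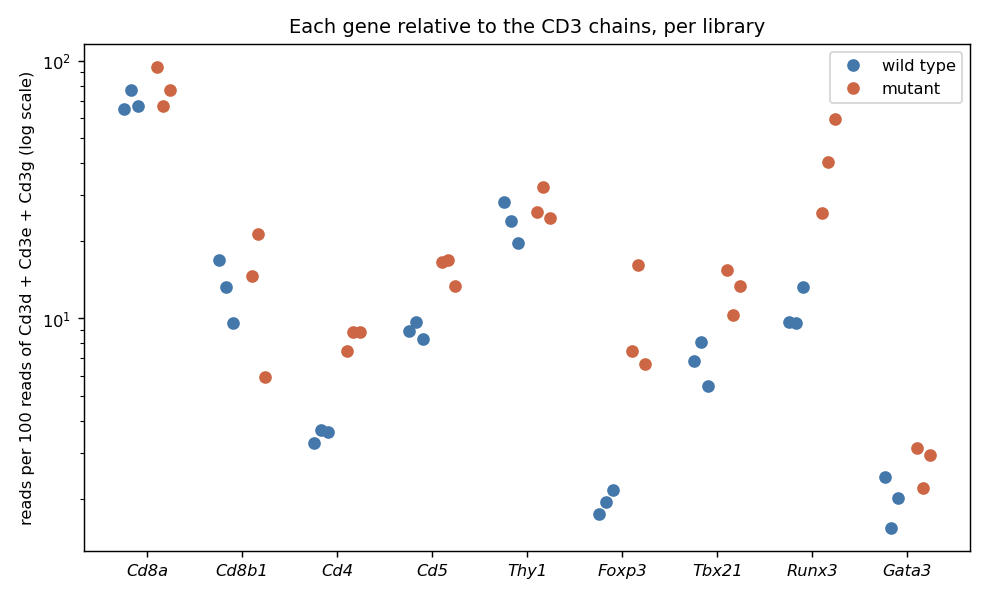
The y axis, on a log scale, gives reads of each gene per 100 reads of Cd3d, Cd3e and Cd3g in the same library, wild type in blue and mutant in orange. Genotypes overlap for Cd8a, Cd8b1, Thy1 and Gata3 and separate for Cd4, Cd5, Foxp3, Tbx21 and Runx3.

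Genes tied to particular subsets were grouped in lists, chosen with earlier results of these data known, and are given as counts beside a median of 0.00098 over all genes tested. Each value given with ± is a log2 fold change with its SE. A gene that is high only in wild type can pass the filter on low counts through that group, so the counts describe the genes that passed and not whole lists. All 4 CD3 chains fell (median −1.47), as did all 7 receptor constant genes (median −1.73). These cover both receptor types, the alpha-beta receptor with Trac (−1.77 ± 0.16) and Trbc2 (−1.70 ± 0.16) and the gamma-delta receptor with Tcrg-C4 (−1.70 ± 0.19). Of 15 names listed for CD8 alpha-alpha intraepithelial lymphocytes 14 had a row of counts. The name Cd244 had none, whereas Cd244a, also listed, had one. Of these genes 13 were tested and 10 fell (median −1.46). They were led by Cd7 (−2.08 ± 0.13), the integrin chain Itgae (−1.17 ± 0.11), the granule protease Gzma (−2.42 ± 0.18) and the chemokine Ccl5 (−1.81 ± 0.16). Several of them, such as Gzmb and Ccl5, are also made by alpha-beta cytotoxic cells. The stem cell factor receptor Kit, also in this list, lay at 0.27 ± 0.10 and was not called.

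Of 20 T cell signalling genes 19 were tested and 10 fell (median −0.66). Lck, the kinase that CD4 and CD8 alpha bring to the receptor, went from 23.1 ± 0.520 (SD, n = 3) to 10.8 ± 1.47 CPM (log2 fold change −1.08 ± 0.12, SE, edgeR adjusted p = 0.000569), and the surface protein Cd96 lay at −1.498 ± 0.17. With the replicate number as a block 6 fell, and 5 fell without wild type replicate 2, with 4 and 5 when mutant replicates 2 and 3 were left out in turn. Of 12 genes listed for circulating or memory CD8 T cells 10 were tested and 2 fell, the granzyme Gzmk (−1.73 ± 0.29) and the chemokine receptor Cxcr3 (−1.46 ± 0.31), with a median of −0.44. The lymph node homing gene Ccr7 (−0.33 ± 0.32) in that list was not called. Leaving out mutant replicate 3 gave 0 calls, and leaving out wild type replicate 1 or 3, or mutant replicate 2, gave 1.

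Among 19 genes listed for helper T cells, 9 could be tested and none was called, with a median of 0.015. The smallest p-values were those of Rora (−0.61 ± 0.21) and Maf (−0.76 ± 0.26), both transcription factors, and 1 gene was called lower without wild type replicate 3 and 2 genes without the filter on low counts. Zbtb7b, the factor that commits cells to the CD4 lineage, stood at 102 ± 8.51 CPM in wild type against 107 ± 4.37 CPM in the mutant libraries (SD, n = 3; log2 fold change 0.07 ± 0.09, SE). Zbtb7b and the low genes named next, like Gzmb, Kit and Ccr7 above, were chosen after their values were seen. Helper cytokines were near the limit of detection, as Il17a (2 and 0 reads over all wild type and all mutant libraries), Il13 (2 and 2), Il4 (14 and 8) and the CD40 ligand gene Cd40lg (12 and 2). Pooled by genotype, Il13 stood at 0.028 and 0.064 CPM, Il4 at 0.194 and 0.257 CPM and Cd40lg at 0.167 and 0.064 CPM. Ifng, which cytotoxic cells also make, had 57 and 5 reads, or 0.791 and 0.160 CPM, and was below the filter.

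Of 16 genes listed for regulatory T cells 9 were tested and 1 fell, Ikzf2 (−0.45 ± 0.10), which encodes Helios and is also in the alpha-alpha list, with a median of −0.24. The call of Ikzf2 was lost when wild type replicate 2 or any mutant library was left out and with the replicate number as a block. The inhibitory receptors Tigit (−1.18 ± 0.43) and Ctla4 (−0.47 ± 0.43) and the receptor Tnfrsf18 (−0.39 ± 0.22) were not called. Below the filter, Il2ra, the high-affinity interleukin 2 receptor chain, had 30 and 13 reads (0.416 and 0.417 CPM) and Izumo1r had 28 and 11 reads (0.389 and 0.353 CPM) in wild type and mutant libraries. Lrrc32 had 15 and 1 reads (0.208 and 0.032 CPM), and Il10 6 and 1 (0.083 and 0.032 CPM). Apart from Ikzf2, the regulatory genes given here were picked with their values in view, and none of those tested was called in either direction.

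Of 18 transcription factors of the T lineage 17 were tested and 2 fell, Ets1 (−1.09 ± 0.12, edgeR adjusted p = 0.000664) and Id2 (−0.74 ± 0.11), with a median of 0.015. Cbfb, the common subunit of RUNX factors, lay at −0.02 ± 0.11, Runx1 at 0.20 ± 0.13 and Bcl11b, a factor of T cell commitment, at 0.07 ± 0.13. None of these 3 was called, and they were picked with their values in view. Of 11 genes of innate lymphoid and NK cells, which can carry Thy1, Tbx21 and Gata3, 7 were tested and none was called (median −0.07; 1 fell without mutant replicate 1), including Klrb1c, the NK1.1 gene, at −1.86 ± 0.56 (edgeR adjusted p = 0.129). That list summed to 136 to 163 CPM in wild type against 144 to 161 CPM in the mutant libraries, and its part in the values of Thy1, Tbx21 and Gata3 was not tested. Of 6 endothelial genes 5 were tested and 1 rose, Vwf (0.96 ± 0.18), a call lost when any mutant library or wild type replicate 2 was left out. The other 4 tested lay below 0, from Esam (−1.21) to Pecam1 (−0.16), and the median of the list was −0.77. None of these was called, but 1 endothelial gene was called lower with the replicate number as a block, with DESeq2, without the filter on low counts and without wild type replicate 3.

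**Figure D5:**
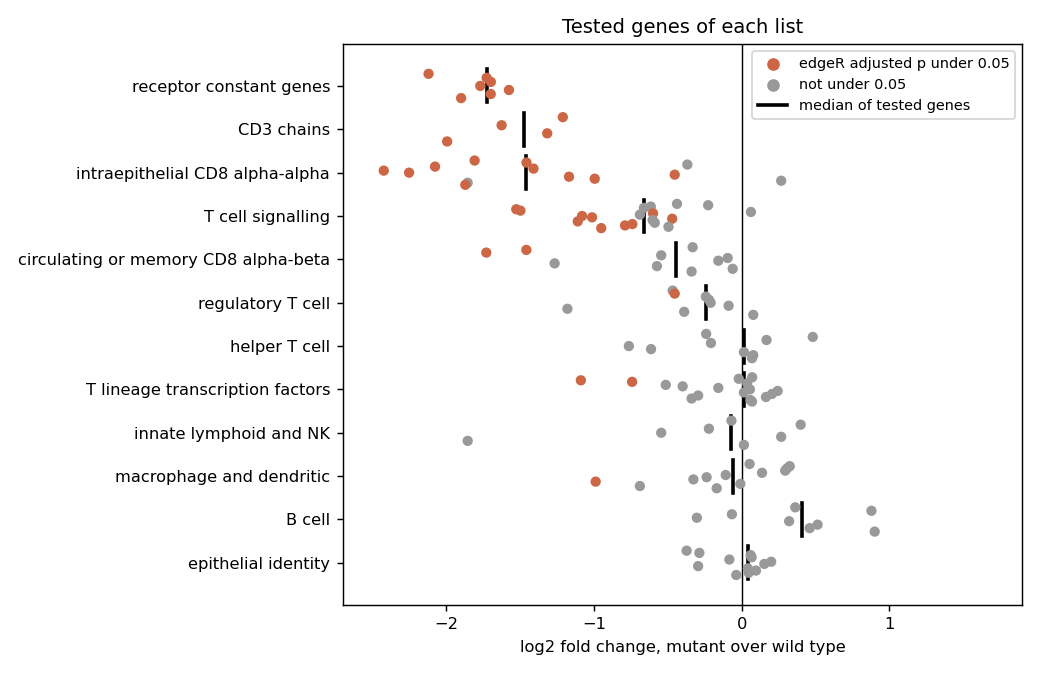
Each point is 1 tested gene of a list, placed by its log2 fold change, mutant over wild type, orange where the edgeR adjusted p was under 0.05, and black bars mark medians. Medians run from −1.73 for receptor constant genes and −1.46 for the alpha-alpha list to −0.24 for the regulatory and 0.015 for the helper list.

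Some genes followed the pattern of Cd8a or Cd4 across the 6 libraries most closely. Likeness was the mean absolute difference in log2 CPM over the 6 libraries, after centring each gene on its wild type mean, among 12971 genes with a mean log2 CPM of at least 1. For Cd8a the nearest were Cd96 (0.050), Cst7 (0.074), Cd52 (0.075), Cxcr6 (0.087) and Cd160 (0.097), which were all called lower, at −1.498, −1.45, −1.39, −1.49 and −1.46. For Cd4 they were Ikzf2 (0.031), Rtn4rl1 (0.040), Dtl (0.053), Ikzf1 (0.055) and Arhgef3 (0.056), at −0.45, −0.53, −0.49, −0.51 and −0.36, of which Ikzf2 alone was called. Many more genes lie near a small change than near a large one, so these distances are not comparable between Cd8a and Cd4.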

How the data were processed

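Total RNA of 6 libraries was made into stranded libraries depleted of ribosomal RNA, per the labels' protocols. Trimmomatic 0.39, STAR, HTSeq and DESeq2, with GRCm38, are named in the submitters' processing notes. No source used here gives the annotation release or strand setting. The deposited count table holds raw read counts per gene. Its closing summary lines, which belong to no gene, entered neither library sizes nor tests; of all entries, 30.8% to 36.9% were alignments at more than 1 place and 1.23% to 1.57% were ambiguous between genes. The authors' second table holds normalized signal (each count times a factor fixed for its library, in 100% of values to within 1e-06), log2 fold changes, a test score and p-values. It was used for gene names and for the log2 fold changes and adjusted p-values credited to it.

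Positions and exon lengths are those of GENCODE M21 (GRCm38). A symbol was found for 45232 of 46078 gene rows. Of the 9 genes, 8 were matched by the authors' gene name and Gata3 by its Ensembl ID. The test of the counts was that of edgeR 4.0.16 under R 4.3.3 (filterByExpr, TMM, robust dispersions, quasi-likelihood F test on genotype, 2-sided, Benjamini-Hochberg over 16757 genes, threshold 0.05). Alternatives were limma 3.58.1 (voom with sample weights), DESeq2 1.42.0 (Wald test), dispersions that were not robust, other scalings and filters, the replicate number as a block and leaving out each library. A standard error is the log2 fold change over the root of its F statistic, and 95% intervals use the total degrees of freedom of the fit. CPM use TMM-scaled library sizes. Ratios per library added 0.5 reads to each term and were compared by exact permutation over libraries, 12 in all. On simulated counts for this comparison over 16757 genes this test recovered 67% of 100 genes set to 2-fold, recovered 90% of 100 set to 4-fold, and made 17 false calls. The changed genes were drawn at random from all genes tested. Recovery was therefore not measured for genes as low as Cd4, Foxp3 and Gata3. The limit that a count of 0 allows, 3 reads, lies at 0.112 to 0.138 CPM for wild type and at 0.207 to 0.374 CPM for mutant libraries. Replicates differed by more than sampling noise (chi-square per degree of freedom 8.40 to 19.4).

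Members, lists and tests were chosen with earlier results of these data known. Named genes were the 9 members, up to 4 called genes per list by smallest p, or 2 where none was called, and the 5 genes most like Cd8a and most like Cd4. Genes named outside this rule are said to be so. No list holds a member, but lists share genes with each other, such as Ikzf2 (alpha-alpha and regulatory) and Kit and Klrb1c (alpha-alpha and innate lymphoid). Some list genes are not reported here by name.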

Additional observations from a re-analysis of the deposited data

How the results depend on the processing

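Over the alternatives, Cd8a (−1.73 to −1.42) and Thy1 (−1.64 to −1.42) kept their call in all 15, and Cd4 (−0.58 to −0.45), Foxp3 (0.14 to 0.81), Tbx21 (−0.98 to −0.61) and Gata3 (−1.37 to −1.03) were called in none. Runx3 was −0.13 to 0.42 when 1 library was left out, below 0 without mutant replicate 3. Cd8b1 lost its call with a filter of 1 CPM in 3 libraries (−1.62, edgeR adjusted p = 0.0513), which leaves Gata3 untested, and with limma voom (−1.71, adjusted p = 0.0571), and leaving out 1 library gave −1.96 to −1.28. Cd5 lost it with the replicate number as a block (−0.92, edgeR adjusted p = 0.0634), and leaving out 1 library gave −1.02 to −0.79. The number of the 9 genes called lower was 2 to 4 when 1 library was left out. The cause of these changes was not tested.

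Over all genes 430 changed. There were 1493 without a filter, 672 with DESeq2's Wald test, 360 with the replicate block and 174 to 674 when 1 library was left out (674 without wild type replicate 3, 174 without mutant replicate 2, 180 without mutant replicate 3). The deviations of same-numbered libraries correlated at −0.13, 0.13 and −0.02 across genes, and only wild type replicate 2 correlated best with its own number, so the numbers were not treated as pairs. Among ratios, Cd8a and Thy1 over CD3 turned below 0 with Cd3e alone (−0.22 and −0.18). Cd8b1 over CD3 was −0.43 to 0.46 and Cd8b1 over Cd8a −0.73 to 0.27 over the left-out libraries, above 0 without wild type replicate 1 (0.15 and 0.021) or mutant replicate 3 (0.46 and 0.27). Depth limits Foxp3, Gata3 and Cd4, with 50, 15 and 43 mutant reads.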
